A study of Salmo salar with 16 samples.

Results

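The genes described here encode the main structural proteins of myelin in the Atlantic salmon (Salmo salar). They are all genes of the deposited annotation whose product name contains myelin protein P0, myelin basic protein (MBP) or myelin proteolipid (PLP), in any case, up to a limit of 10 genes chosen by the count summed over all libraries. Only 8 of the 81574 genes matched, with 1 P0 gene, 3 MBP genes and 4 PLP genes. The limit was therefore not reached, so that in effect the members were selected on their product names alone, and no matching gene was left outside. The smallest summed count was 12929, and all 8 genes passed the filter on low counts.

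The samples were mid-brain (here called brain), pituitary gland, ovary and liver, with 4 RNA-Seq libraries per tissue and 16 in all. Per the study's methods, the fish were immature 3-year-old females of 1 year class from a breeding program. The labels name no treatment, transgene or mutation, and each piece of tissue is a mixture of cell types. The methods name 4 animals for the 16 libraries, so the tissues share fish, but the labels do not say which libraries come from the same fish. The tests treat the libraries as independent, and their p-values measure the spread between these libraries. Each gene has 1 spread, estimated over the libraries of all 4 tissues. The p-values of comparisons without the brain thus carry the spread of the brain libraries too.

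Myelin is the stack of membrane that oligodendrocytes in the central nervous system, and Schwann cells in nerves, wrap around axons so that impulses travel faster. P0 is an adhesion protein with an immunoglobulin-like domain that holds the outer faces of neighbouring wraps together. In mammals it is the major protein of nerve myelin, and in bony fish it is also found in myelin of the central nervous system. MBP is a small basic protein that pulls the inner, cytoplasmic faces together, and PLP, with its splice form DM20, is a protein with several membrane passes and the most abundant protein of central myelin in mammals. The salmon lineage went through a genome duplication, so many of its genes occur as pairs of similar copies.

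The members lie on 7 chromosomes of the ICSASG_v2 assembly. LOC106600490, the P0 gene, spans chr3:40118970-40130972 on the plus strand, with 4 transcripts of 202 to 231 codons and 4739 bases of merged exon. LOC106583543 (MBP) spans chr2:31841882-31909407 on the minus strand and LOC106605072 (MBP) chr5:48908264-48977470 on the plus strand. These 2 loci are long, 67.5 and 69.2 kb, and have 13 and 12 transcripts, of which 7 and 6 are coding. The third MBP gene, LOC106588233, is a compact locus of 15.3 kb at chr27:4860797-4876076 on the plus strand with 3 transcripts, and it carries the symbol mbpa in RefSeq. The coding lengths of the MBP genes are alike, from 103 to 131 codons.

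Among the PLP genes, LOC106567853 (plp1b in RefSeq) spans chr13:78753731-78760280 on the minus strand and LOC106603383 chr4:45950889-45956778 on the plus strand. Both have 2 transcripts of 246 and 258 codons. LOC106612194 (plp1a in RefSeq) spans chr9:82769977-82779254 on the plus strand and codes for 245 and 249 residues. Its exons overlap those of LOC106612195 on the opposite strand by 465 bases. The strand setting of the counting is not given in the sources used here, so reads of this pair cannot be told apart there. LOC106604242 spans chr5:9828446-9840134 on the minus strand, has 1 transcript and is annotated as partial. No other member shared exon bases with another gene. Only uniquely mapped reads were counted, so reads that fit 2 similar copies equally well are in neither.

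Library totals ran from 20638203 to 51858156 counts, the highest being that of brain replicate 2. Levels are given as CPM, counts scaled to a common library size and corrected for composition, and as FPKM, which also divides by the merged exon length in kb. The summed neuron, pituitary and liver marker lists went with the tissue labels, and the egg coat list did not as a sum. Summed over genes, neuron markers took 2177 to 9190 CPM in the brain libraries and at most 420 CPM elsewhere, pituitary hormones took at least 272815 CPM in the pituitary gland and at most 627 CPM elsewhere, and liver plasma proteins took at least 122916 CPM in the liver and at most 123 CPM elsewhere. Egg coat proteins took 3637 to 4480 CPM in the ovary and 20890.4 to 24110.4 CPM in liver libraries, an organ that makes such proteins in fish.

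Myelin structural genes took a far larger share of the counts in the brain than in the other tissues. Together the 8 genes took 2.36% of the counts of a brain library (SD 1.82, n = 4), against 0.0141% in the pituitary gland. The share was 0.0135% in ovary libraries and 0.00376% in liver libraries. By count summed over all 16 libraries of the 4 tissues, LOC106600490 ranked 23 among all genes, and the 3 MBP genes ranked 33, 41 and 69. LOC106567853 and LOC106603383 ranked 153 and 177, whereas LOC106604242 and LOC106612194 ranked 4591 and 7452. These are not ranks within the brain alone.

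The P0 gene LOC106600490 had 10090.2, 5724, 5591 and 880 CPM in brain replicates 1 to 4. Its pituitary values were 59.2, 44.1, 32.9 and 39.2 CPM, its ovary values 11.8, 9.14, 12.1 and 7.68 CPM and its liver values 27.4, 19.1, 26.9 and 12.9 CPM. Every brain library lay above every other library, including brain replicate 4, which had 14.9 times the highest pituitary value. The means were 5571 ± 3762 CPM in the brain and 43.9 ± 11.2 in the pituitary gland (SD, n = 4). The log2 fold change was 6.99 for brain against pituitary gland (SE 0.62, edgeR adjusted p = 2.43e-07), 9.10 against ovary (SE 0.68, adjusted p = 3.90e-09) and 8.01 against liver (SE 0.65, adjusted p = 1.97e-08). A lower level in bulk tissue cannot be split into fewer cells of a type and less RNA per cell, for this and the other genes.

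Another P0 gene, myp0 (mpz in RefSeq, chr14:40041099-40062060 on the plus strand), carries the product name Myelin P0 protein. The other word order keeps it outside the rule, and it was noticed when the annotation was read. It had 1785, 997, 1129 and 163 CPM in the brain libraries. Replicate 1 was highest and replicate 4 lowest, as for LOC106600490. Per length, the FPKM of LOC106600490 was 6.95 ± 0.46 times that of myp0 in the brain (SD, n = 4) and 4.81 ± 0.65 times in the pituitary gland. Brain exceeded the other tissues for myp0 as well, by log2 fold changes of 6.41, 8.87 and 8.0 against pituitary gland, ovary and liver (adjusted p = 7.07e-07, 8.78e-09 and 3.95e-08).

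Of the MBP genes, LOC106583543 had the highest brain counts, with 9139, 3406, 4125 and 581 CPM in replicates 1 to 4. It had 22 to 39.0 CPM in pituitary, 14.7 to 18.5 CPM in ovary and 6.68 to 17.5 CPM in liver libraries. The log2 fold changes of brain over pituitary gland, ovary and liver were 7.28, 8.10 and 8.33, with SEs of 0.68, 0.71 and 0.72 and adjusted p-values of 4.31e-07, 2.67e-08 and 4.03e-08. LOC106605072, the other long locus, had 5948, 2792, 3316 and 514 CPM in the brain. Elsewhere it had 21.2 to 27.2 CPM in pituitary, 21.9 to 25.3 CPM in ovary and 7.18 to 13.2 CPM in liver libraries. The pituitary gland and ovary libraries overlapped for this gene, and its brain excess was 7.01, 7.08 and 8.14 on the log2 scale (adjusted p = 1.20e-07, 1.22e-08 and 8.0e-09).

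LOC106588233, the compact MBP gene, had 3670.0, 1721, 1782 and 359 CPM in the brain. Its other libraries lay between 2.11 and 14.1 CPM, so the lowest brain library stood 25.4 times above the highest of them, the widest such gap among the 8 genes. The log2 fold changes were 7.58, 9.26 and 8.34 against pituitary gland, ovary and liver (adjusted p = 1.29e-07, 3.09e-09 and 1.40e-08). Per length, the brain levels of the MBP genes were 1559 ± 1288 FPKM for LOC106583543, 1065 ± 756 for LOC106605072 and 1060 ± 766 for LOC106588233. The last 2 differed by less than their spread.

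The PLP genes fell into 2 abundant genes and 2 with far lower levels. LOC106567853 had 1983, 1050.45, 1084 and 227 CPM in the brain, and LOC106603383 had 1756, 920.1, 902 and 140.3 CPM. Their brain levels per length were 459 ± 303 and 435 ± 309 FPKM, a difference far inside the spread, although LOC106567853 was the higher in each of the 4 libraries. Both were higher in the brain than in the pituitary gland, by 6.77 on the log2 scale each (adjusted p = 1.27e-07 and 3.86e-07). Against ovary the log2 fold changes were 9.22 and 9.03 (adjusted p = 1.31e-09 and 5.84e-09), and against liver 8.0 and 8.15 (adjusted p = 8.09e-09 and 2.69e-08).

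LOC106612194 had 116, 76.9, 72.6 and 15.1 CPM in the brain libraries. The pituitary libraries had 2.39, 2.26, 3.29 and 2.27 CPM, the ovary libraries 1.02 to 1.14 CPM, and the liver libraries 11, 7, 5 and 2 counts. Its brain libraries stood clear of the others, with the lowest 4.58 times above the highest pituitary value. The log2 fold changes were 4.77 (SE 0.48), 6.05 (SE 0.51) and 6.98 (SE 0.58) against pituitary gland, ovary and liver, with adjusted p-values of 8.38e-07, 1.77e-08 and 2.64e-08. The liver value rests on few counts, with replicate 4 below a floor of 3 counts.

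LOC106604242, the partial gene model, stood apart from the other members. It had 77.8, 63.1, 62.5 and 22 CPM in the brain libraries and 43.0, 31.1, 41.4 and 31.2 CPM in those of the ovary. Its pituitary values were 16.9, 16.6, 17.8 and 13.8 CPM and its liver values 10.4, 11.5, 21.4 and 10.4 CPM. Brain replicate 4 was below every ovary library, and the other 3 brain libraries were above all of them. Of its counts, 54.5% came from the brain, against 96.3% for LOC106612194 and 98.7 to 99.4% for the other 6 genes. Brain exceeded liver by a log2 fold change of 2.07 (SE 0.32, adjusted p = 2.84e-05) and pituitary gland by 1.79 (SE 0.31, adjusted p = 1.85e-04), the second below the required fold. Against ovary the value was 0.62 (SE 0.30, adjusted p = 0.0715). Both calls depended on single libraries and on the setting. With plain library totals the value against pituitary gland was 2.25 and was called, and with brain and liver fitted alone the value against liver was 2.06 (adjusted p = 0.00168) and was not. Without brain replicate 4 the value against pituitary gland was 2.06 and was called, and without brain replicate 1, liver replicate 1 or liver replicate 4 the value against liver was 1.88, 1.96 and 1.96 and was not.

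**Figure D1:**
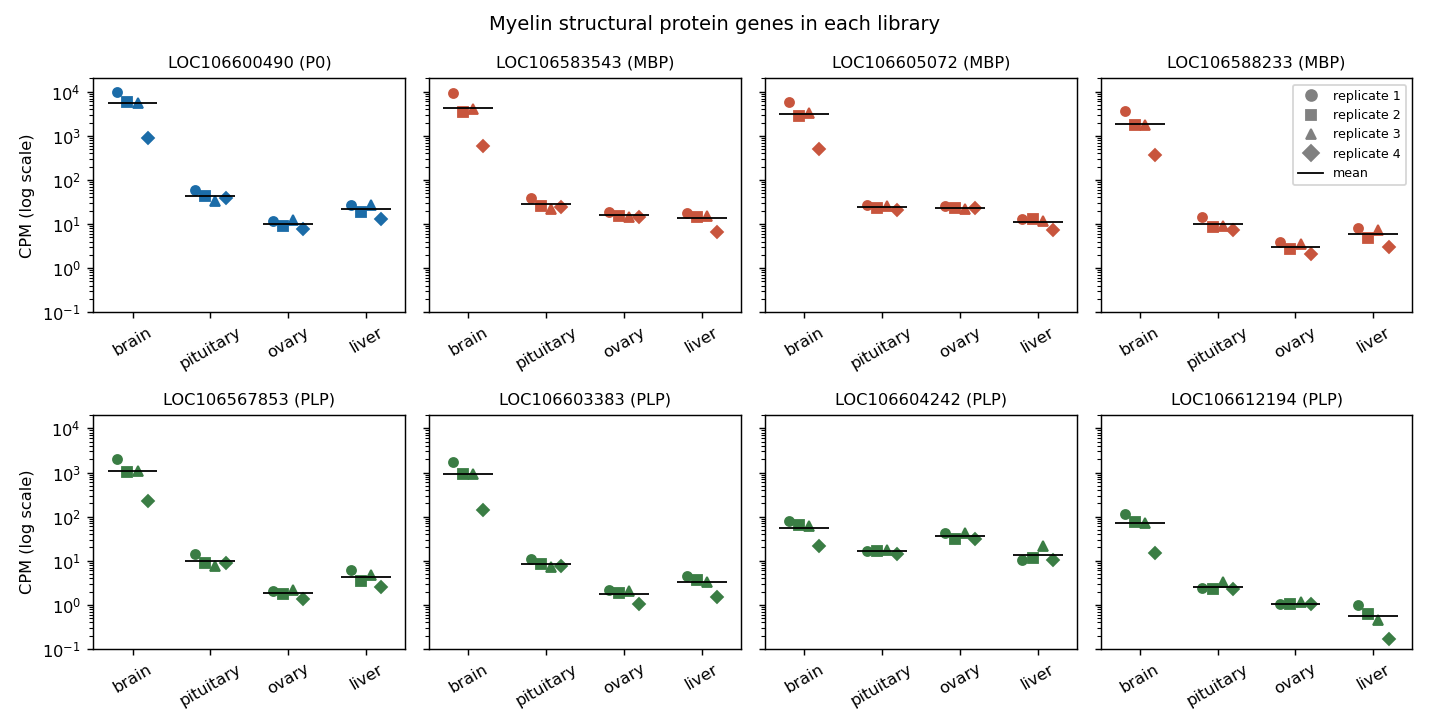
CPM (log scale) of each of the 8 genes in each library, by tissue, with 1 symbol per replicate and a bar at the tissue mean. For 7 genes all brain libraries lie above all 12 others, while for LOC106604242 the ovary libraries (31.1 to 43.0 CPM) overlap the brain range of 22 to 77.8 CPM, and brain replicate 4 is the lowest brain library in every panel.

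The thresholds of the study were used for a call, an adjusted p no higher than 0.001 with a log2 fold change no smaller than 2. Against pituitary gland, 7 of the 8 genes were called higher in the brain, where 10.7% of the 37043 genes tested were. Against ovary it was also 7 of 8, with 27.6% of all genes, and against liver it was 8 of 8, with 22.1%. The median log2 fold changes of the members were 6.88, 8.57 and 8.08, beside medians of 0.05, 0.20 and 0.22 over all genes tested. These 3 comparisons share the brain libraries. For 7 of the 8 genes all 4 brain libraries lay above all other libraries, which held for 11.9% of all genes tested. LOC106604242 was the exception in each of these counts except that against liver. With plain library totals in place of the composition factors, the median of all genes shifted by 0.45 for brain against pituitary gland and by 1.39 against liver. The share of called genes that were higher in the brain then went from 68.6 to 80.0% and from 67.2 to 87.7%. The member counts were then 8, 7 and 8, beside 14.7, 26.9 and 38.2% of all genes tested called higher in the brain.

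**Figure D2:**
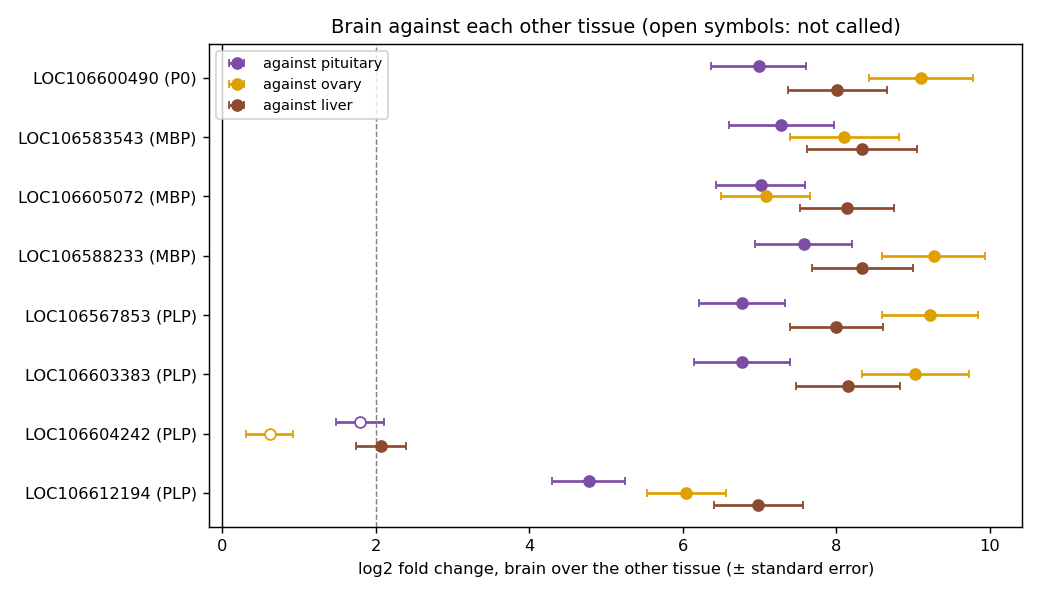
Log2 fold change of the brain over pituitary gland, ovary and liver for each gene, with bars of 1 standard error from the edgeR fit, a dashed line at the required fold and open symbols for values not called. The 6 most abundant genes lie between 6.77 and 9.26, LOC106612194 between 4.77 and 6.98, and LOC106604242 between 0.62 and 2.07.

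By log2 fold change, the tissues outside the brain differed little by comparison. For pituitary gland against ovary, 1 of the 8 genes was called higher in the pituitary gland, where 22.3% of all genes were. It was LOC106567853, with 9.94 ± 3.13 CPM against 1.82 ± 0.34 CPM (SD, n = 4) and a log2 fold change of 2.45 (SE 0.48, adjusted p = 2.04e-04). Without ovary replicate 2 or ovary replicate 4 this gene lost its call, at 2.42 and 2.32 on the log2 scale, as it did with plain library totals (1.9), and the count was 0. LOC106600490 and LOC106603383 lay just past the limit on p, with log2 values of 2.11 and 2.26 and adjusted p-values of 0.00113 and 0.00106. With the replicate number as a block both were called too, at 2.13 and 2.35, so that the count was 3. The count was also 3 with the 2 tissues fitted alone, a fit without the brain libraries. Over all genes, in either direction, 15073 of 37043 were called with the block and 15317 of 33622 with the 2 tissues alone. LOC106600490 then had 2.27 (SE 0.20, edgeR adjusted p = 3.58e-07) and LOC106603383 2.42 (SE 0.25, adjusted p = 1.70e-06). In the fit of all 4 tissues LOC106605072 did not differ beyond its spread, at 0.07 (SE 0.45, adjusted p = 0.895). Its sign turned with plain library totals (−0.46).

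For pituitary gland against liver, 0 of 8 genes were called by edgeR, beside 28.2% of all genes in either direction. Here 4 members had an edgeR unadjusted p under 0.05, for which the share over all genes was not computed. DESeq2 called 1 member, LOC106612194, beside 11541 of the 41634 genes it tested. The log2 values ran from 0.28 for LOC106604242 to 2.2 for LOC106612194, all with the pituitary gland higher. With plain library totals LOC106567853 (2.17) and LOC106612194 (3.15) were called higher in the pituitary gland, as were 26.7% of all genes tested. For ovary against liver, 0 of 8 were called by edgeR or DESeq2, beside 40.8% of all genes with edgeR. Again 4 had an unadjusted p under 0.05, with no share over all genes computed. LOC106604242 was higher in the ovary by 1.45 on the log2 scale (SE 0.32, adjusted p = 5.80e-04), below the required fold, while LOC106567853 had −1.22 and LOC106600490 −1.08. The sign of the latter 2 turned with plain library totals, at 0.26 and 0.41, and LOC106604242 (2.94) and LOC106605072 (2.55) were then called higher in the ovary. So were 42.0% of all genes tested under that scaling. The member medians in these 3 comparisons were 1.48, 1.09 and −0.33, with all-gene medians of −0.04, 0.17 and 0.38.

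In the order of mean levels, brain came first for all 8 genes. The pituitary gland came second for all but LOC106604242, for which the ovary did. Liver exceeded ovary in the mean for LOC106600490, LOC106588233, LOC106567853 and LOC106603383, and their libraries overlapped for LOC106588233 and LOC106603383. This order turned for all 4 with plain library totals, with ovary over liver at 0.26 to 0.60 on the log2 scale. Pituitary gland and liver overlapped for LOC106588233 and LOC106604242. Ovary exceeded liver for the other 4 genes, with overlapping libraries for LOC106583543. For pituitary gland and ovary the libraries overlapped only in LOC106605072, among genes where these are neighbours.

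Levels outside the brain can be set against the brain mean of the same gene. For the 6 most abundant genes the liver mean was 0.310 to 0.391% of the brain mean, although their brain means ran from 930 to 5571 CPM. The pituitary gland mean was 0.524 to 0.918% and the ovary mean 0.162 to 0.739%. Within the ovary, LOC106605072 and LOC106583543 had 0.739 and 0.364% and the other 4 had 0.162 to 0.191%. LOC106612194 had 3.64, 1.51 and 0.796% in pituitary gland, ovary and liver, and LOC106604242 had 28.9, 65.2 and 23.8%. For comparison, myp0 had 1.18, 0.214 and 0.390%. These percentages depend on the scaling. With plain library totals the 6 genes had 0.114 to 0.145% in the liver, 0.373 to 0.654% in the pituitary gland and 0.168 to 0.768% in the ovary, so that liver then lay below ovary for each of them.

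**Figure D3:**
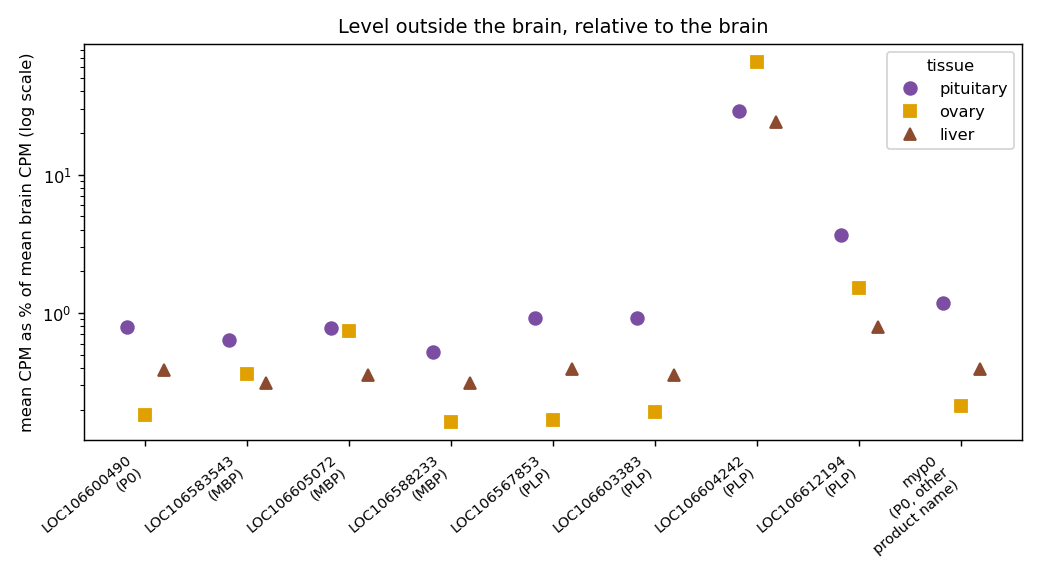
Mean CPM in pituitary gland, ovary and liver as a percentage of the mean brain CPM of the same gene (log scale), for the 8 genes and myp0, with composition-corrected CPM. Most points lie below 1%, the liver values of the 6 most abundant genes are at 0.310 to 0.391% (0.114 to 0.145% with plain library totals), and LOC106604242 reaches 65.2% in the ovary.

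The 6 most abundant genes also took the same positions among replicate numbers in several tissues. Replicate 1 was highest for 6 of 6 in the brain, 6 of 6 in the pituitary gland, 4 of 6 in the ovary and 5 of 6 in the liver. Replicate 4 was lowest for 6 of 6 in the brain, 6 of 6 in the liver, 4 of 6 in the ovary and 2 of 6 in the pituitary gland. Over the 16 libraries each of these genes correlated with the mean of the other members at 0.977 to 0.997. These correlations span the tissues, so a correlation within a tissue, which was not computed, cannot be read from them. The counts come from the same libraries and cannot be taken as those of independent genes. The share of all genes at these positions was not computed. The libraries come from 4 fish, but the labels do not say that those with the same number share a fish or were prepared together, and the part of either in these positions was not tested.

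The families took different shares of the summed FPKM of the 8 genes. These shares leave out the other P0 gene, myp0, which had 168 ± 110 FPKM in the brain (SD, n = 4). Of the summed FPKM of the 8 genes in the brain, the MBP genes took 62.5% (SD 2.56), the P0 gene 20.5% (SD 1.72) and the PLP genes 17.0% (SD 1.43, n = 4). These shares were far steadier than the levels, since the summed CPM of the 8 genes ran from 2737 to 32781 in the same libraries. In the pituitary gland the shares were 47.6% for MBP, 18.4% for P0 and 33.9% for PLP, and in the liver 44.9, 17.2 and 37.9%. In the ovary the PLP genes took 52.4% and P0 took 5.81%.

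Among the MBP genes, LOC106583543 took 40.2% of the family's brain FPKM (SD 3.74), with 30.2% for LOC106588233 and 29.5% for LOC106605072. The last 2 could not be ranked within their SDs of 3.15 and 1.60. In the ovary LOC106605072 took 51.7% (SD 2.29) and LOC106588233 only 11.2% (SD 2.32), with no overlap between the libraries of the 2 genes. Among the PLP genes, LOC106567853 and LOC106603383 took 49.7 and 43.9% in the brain (SD 2.94 and 4.66), and LOC106604242 and LOC106612194 took 3.57 and 2.91%. LOC106604242 was the leading PLP gene in each other tissue, with 89.7% of the family in the ovary (SD 1.17), 63.9% in the liver (SD 11.5) and 46.0% in the pituitary gland (SD 5.45).

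**Figure D4:**
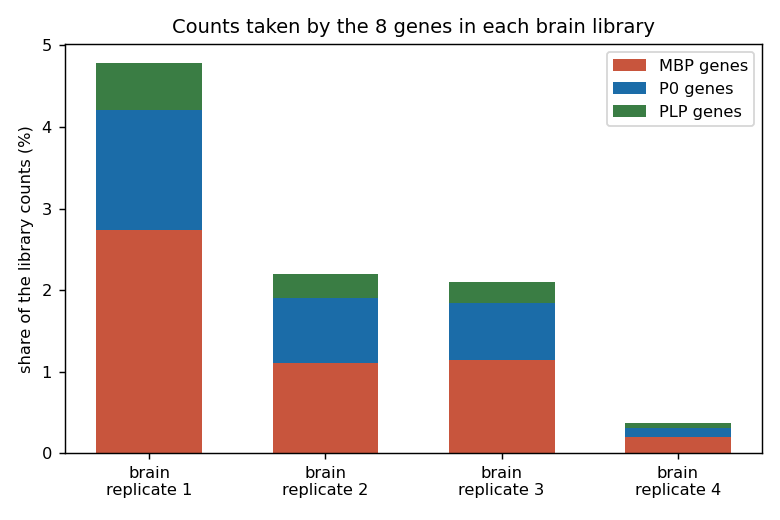
Share of the counts of each brain library taken by the 8 genes, stacked by family (bars start at 0). The total is 4.78% in replicate 1 and 0.369% in replicate 4, and the MBP genes are the largest part in each library.

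The brain libraries differed strongly in myelin transcripts. Replicate 1 was highest and replicate 4 lowest for all 8 genes. The ratio of the highest to the lowest library was 8.75 to 15.7 for the 6 most abundant genes, 7.70 for LOC106612194 and 3.54 for LOC106604242. Over the 13666 genes with a mean of at least 10 CPM in the brain the median ratio was 1.74, and 11.3% of these genes had a ratio of at least 5. Replicates 2 and 3 lay near each other, as for LOC106600490 with 5724 and 5591 CPM.

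Other lists of cell type markers moved between the same libraries by smaller ratios. Summed neuron markers had 7456, 9190, 5409 and 2177 CPM in brain replicates 1 to 4, and astroglia and radial glia markers had 2962, 2931, 1709 and 1330 CPM. The highest library was 4.22 and 2.23 times the lowest for these lists. The lists of myelin and oligodendrocyte genes described below had ratios of 2.96 for membrane genes, 6.79 for lipid enzymes and 2.32 for transcription factors and receptors. The larger ratio of the 8 genes was therefore not shared by these lists as sums, but single genes of the lists did share it. Replicate 1 over replicate 4 was 9.26 for LOC106605238, 8.66 for LOC106582469 and 8.57 for ermn. It was 12.3 for fa2h, 10.6 for LOC106576777 and 8.75 for LOC106605004. Other list genes had lower values, such as 1.65 for LOC106601016, 3.04 for nfasc and 0.839 for LOC106610670. Erythrocyte markers had 147, 49.9, 301 and 198 CPM, a ratio of 6.02, and pituitary hormones 350, 176, 381 and 449 CPM, a ratio of 2.56. Replicate 4 thus had the lowest neuron and glia sums as well as the lowest myelin sums, and the part of tissue composition in the myelin levels was not tested. Without brain replicate 4 the members called higher in the brain were 8, 7 and 8 against pituitary gland, ovary and liver, and without brain replicate 1 they were 7, 7 and 7.

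Other genes of myelin and oligodendrocytes were taken from lists of product names. The list of membrane genes matched 30 genes, of which 18 were tested. In the brain 7 of these were called higher than in the pituitary gland, 10 than in the ovary and 7 than in the liver, beside 10.7, 27.6 and 22.1% of all genes tested. The last count was 13 with plain library totals, where 38.2% of all genes were called higher in the brain. In turn 2, 2 and 0 were called lower, where 4.91, 19.0 and 10.8% of all genes were. The lower genes were named after their values were seen, LOC106565094 (−2.29) and LOC106583505 (−2.21) for contactin-2-like adhesion proteins against pituitary gland, and pmp22 (−2.61) and LOC106610551 (−3.66), a similar gene, against ovary. The median log2 fold changes of the list were 2.27, 3.28 and 1.65. Of 5 genes for a myelin-associated glycoprotein, an adhesion protein of the innermost wrap that faces the axon, 2 had enough counts to be tested, and both were called in all 3 comparisons. The other 3 had 20 to 56 counts in all. LOC106605238 had 559, 481, 342 and 60.3 CPM in the brain, with log2 fold changes of 6.72, 6.48 and 7.87, and LOC106582469 had 488, 418, 289 and 56.3 CPM, with 6.54, 9.11 and 8.0. The gene ermn, for the cytoskeletal protein ermin of oligodendrocytes, had 133, 72.7, 62.4 and 15.6 CPM and log2 values of 6.63, 9.14 and 8.17. These 3 genes had their lowest brain value in replicate 4, as the structural genes did.

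Other members of that list were not restricted to the brain. LOC106601016, similar to the enzyme cyclic-nucleotide phosphodiesterase that marks oligodendrocytes in mammals, had 227, 250, 224 and 137 CPM in the brain and a mean of 348 CPM in the ovary. Its log2 values were 0.44, −0.73 and 1.39, none of them called, although with plain library totals the last was 2.79 and was called. The gene pmp22, for a membrane protein of nerve myelin in mammals, was called lower in the brain than in the ovary (log2 fold change −2.61, adjusted p = 1.05e-08), with values of 0.01 against pituitary gland and −0.35 against liver, both of which turned sign under another scaling or library set. The gene nfasc, for neurofascin, which anchors myelin beside the nodes, was called higher than in the ovary (4.32) but had 0.95 and 1.30 against pituitary gland and liver. LOC106567268, a neurofascin-like gene with 38.5, 25.3, 66.5 and 39.2 CPM in the brain libraries, was likewise called only against ovary, at 3.93. Both were also called against liver with plain library totals, at 2.74 for nfasc and 3.18 for LOC106567268.

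LOC106570571, similar to the lipid-binding myelin P2 protein, differed from the structural genes among the brain libraries. It had 13.4, 10.1, 141 and 115 CPM in replicates 1 to 4, with replicates 3 and 4 high. It was called against pituitary gland (log2 fold change 5.0, adjusted p = 2.95e-05) and had 0.03 against ovary, a sign that turned under several settings, and 1.31 against liver, or 2.65 and called with plain library totals. With brain and pituitary gland fitted alone it had 5.01 (edgeR adjusted p = 0.00230) and was not called.

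The list of enzymes for myelin lipids, searched by product names, matched 8 genes, of which 6 were tested. A name match does not show that a gene acts on myelin lipids. The gene acy3, for example, matched through its product name aspartoacylase (aminocyclase) 3. In the brain 2, 3 and 2 were called higher than in pituitary gland, ovary and liver, and 0, 0 and 3 lower, beside 10.7, 27.6 and 22.1% of all genes higher and 4.91, 19.0 and 10.8% lower, with median log2 values of 1.46, 2.62 and −0.47. With the 2 tissues of a pair fitted alone the first count was 0 and the last 1, with the CPM filter both were 1, and without pituitary replicate 1 the first was 1. The gene fa2h, for the enzyme that makes the 2-hydroxylated fatty acids of myelin galactolipids, had 134, 75.0, 58.8 and 10.9 CPM in the brain and was called in all 3 comparisons, at 2.95, 2.04 and 5.92. The call against ovary was narrow (adjusted p = 9.46e-04) and was lost when any 1 ovary library or brain replicate 1, 2 or 3 was left out, with values of 1.51 to 2.18. LOC106585654, for a galactosylceramide sulfotransferase, which makes sulfatide, was called in all 3 comparisons as well, though not against pituitary gland without pituitary replicate 1 (adjusted p = 0.00118). It had 5.29, 2.40, 2.66 and 0.639 CPM in the brain and 0 in all liver libraries. LOC106580113, with the same product name, had higher brain levels, at 15.9, 9.24, 10.1 and 3.35 CPM. It was called only against ovary, at 7.21. Against pituitary gland and liver it had 1.397 and 1.799 (edgeR adjusted p = 0.0198 and 0.00376) and was not called. The call against liver was made with plain library totals, at 3.22, and without brain replicate 4, at 2.08. The 3 genes called lower than in the liver were aspa (−2.73, or −1.32 and not called with plain library totals), acy3 (−6.08) and LOC106573787 (−5.24). The first is for aspartoacylase, which in mammals frees acetate from N-acetylaspartate in oligodendrocytes.

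The list of transcription factors and receptors, searched by product names used for the oligodendrocyte lineage, matched 57 genes, and 33 were tested. A name match does not place a gene in that lineage. The name myelin transcription factor 1 alone matched 10 genes, among them myt1l, and their calls were not counted apart. In the brain 17, 27 and 25 were called higher than in pituitary gland, ovary and liver, beside 10.7, 27.6 and 22.1% of all genes. In turn 0, 0 and 1 were called lower, beside 4.91, 19.0 and 10.8% of all genes. The median log2 fold changes were 3.28, 5.84 and 6.59. The 1 lower gene, named after its value was seen, was LOC106576539 (−5.09), for a protein similar to myelin regulatory factor. The genes LOC106576777 and LOC106605004, for Nkx-6.2-like homeodomain factors, had 54.8, 32.2, 31.3 and 5.17 CPM and 34.6, 24.8, 21.0 and 3.96 CPM in the brain. LOC106586884, for a factor similar to Olig2, which specifies oligodendrocytes, had 55.0, 33.6, 29.0 and 12.1 CPM. All 3 were called higher in the brain in each comparison, and all 3 had their lowest brain value in replicate 4.

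Several genes for quaking, an RNA-binding protein that acts on myelin transcripts in the mouse, belonged to the same list. LOC106578914 and LOC106605787 were called in all 3 comparisons, with log2 fold changes of 3.50, 4.95 and 2.21 and of 4.68, 5.84 and 5.74. Without brain replicate 1, LOC106578914 had 1.78 against liver and was not called. LOC106589438 was called against pituitary gland and ovary (4.00 and 2.71) and had −0.59 against liver, or 0.82 with plain library totals. LOC106610670 was called only against pituitary gland, at 2.14, or 1.62 and not called without brain replicate 2. With these 2 tissues fitted alone it had 2.15 (edgeR adjusted p = 0.00153) and was not called. It had 57.9, 192, 84.3 and 69.0 CPM in the brain, with replicate 1 lowest. LOC106561796 had 16.9, 186, 15.1 and 8.98 CPM in the brain, with replicate 2 far above the rest, and was called in none. Against pituitary gland it was called without brain replicate 1, 3 or 4, at 3.46 to 3.51, and against liver it was called lower in the brain without brain replicate 2, at −2.24.

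The M6 proteolipids are relatives of PLP that are found mainly in neurons. All 6 genes of this list were tested, and 5, 6 and 6 were called higher in the brain than in pituitary gland, ovary and liver, beside 10.7, 27.6 and 22.1% of all genes. The exception was dmb, with a log2 fold change of 1.76 against pituitary gland. Their summed CPM in brain replicates 1 to 4 was 1237, 1864, 604 and 1019. The lowest library was replicate 3, unlike for the 8 myelin genes.

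**Figure D5:**
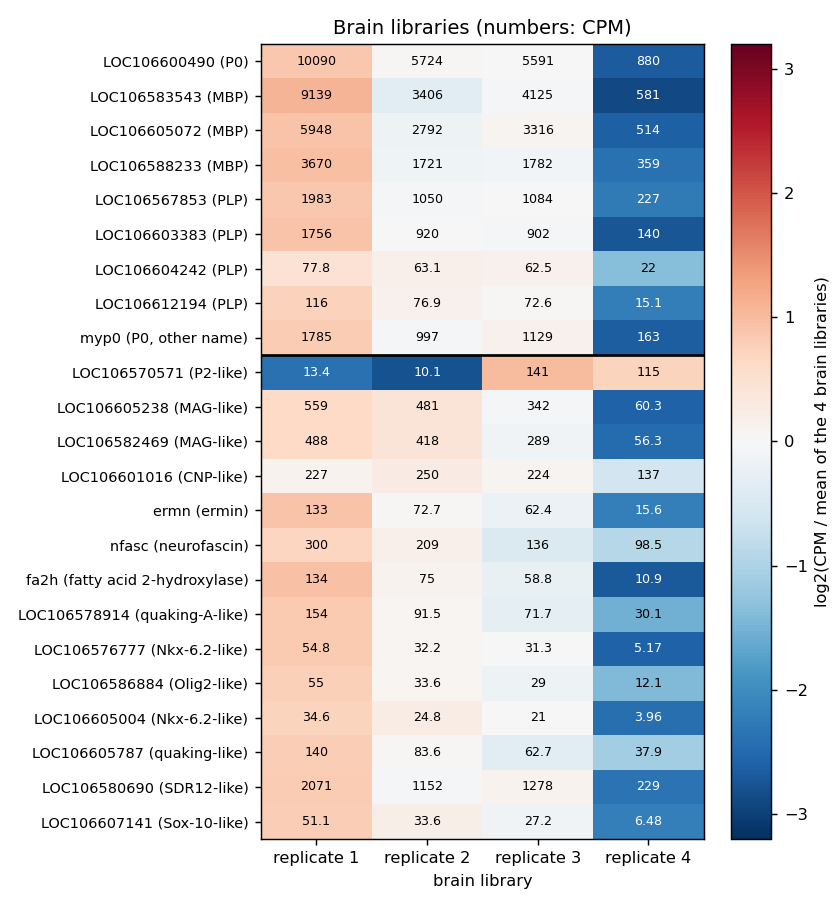
CPM in the 4 brain libraries (numbers) and log2 of the CPM over the mean of the 4 libraries (colour), with the 8 genes and myp0 above the line. Below it is a selection of other myelin and oligodendrocyte genes. LOC106580690 is also there, which was in no myelin list and was chosen for its similar pattern. Not all named list genes are drawn, and LOC106610670 and LOC106567268, lowest in replicates 1 and 2, are left out. Replicate 4 is lowest for every gene above the line, and the P2-like gene LOC106570571 is instead highest in replicates 3 and 4, at 141 and 115 CPM.

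The genes with the most similar pattern were sought among 13658 genes by Pearson correlation of log2(CPM + 1) with the mean scaled pattern of the members over the 16 libraries, which share tissue and depth. The closest was LOC106567121, similar to skin secretory protein xP2, with r = 0.996 and 263, 162, 178 and 35.0 CPM in the brain. LOC106580690, a short-chain dehydrogenase gene of the SDR12 type, had r = 0.995 and 2071, 1152, 1278 and 229 CPM in the brain, beside means of 15.7, 7.0 and 3.81 CPM in pituitary gland, ovary and liver. LOC106607141, for a factor similar to Sox-10, which drives myelin genes, had r = 0.994 and 51.1, 33.6, 27.2 and 6.48 CPM. The others were cld6 (0.994), LOC106603358 (0.994), LOC106601946 (0.993), ermn (0.993) and LOC106564918 (0.993), for a claudin-6, a tubulin polymerization-promoting protein, a claudin-6-like protein, ermin and an uncharacterized product. None of the 8 genes closest by Spearman correlation was among them. Within the members, the correlation of each gene with the mean of the other 7 was 0.977 to 0.997, except for LOC106604242 with 0.674.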

How the data were processed

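Messenger RNA of mid-brain, pituitary gland, ovary and liver was sequenced in 4 libraries per tissue. Per the study's methods, the authors mapped reads to ICSASG_v2 with TopHat2 2.1.1, sorted and converted the alignments with SAMtools 1.4, and counted unique reads on exons with HTSeq 0.7.2. The deposited counts are raw and cover 81574 genes. A deposited table of centered log2 values was not used, and gene positions and exon lengths come from the deposited annotation. Symbols were looked up in a RefSeq table of another assembly, whose coordinates were not used.

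Counts were scaled with the TMM factors of edgeR 4.0.16, filtered with filterByExpr (37043 genes) and fitted with 1 mean per tissue over 16 libraries. The quasi-likelihood test compared 6 pairs of tissues, with Benjamini-Hochberg adjustment within a pair. The SE is the log2 fold change over the square root of F. FPKM is CPM over the merged exon length in kb. The fit was tested on simulated counts with the same spread for every gene and tissue. The spread of the members differed between tissues, so that test does not bear on their values. R 4.3.3, DESeq2 1.42.0, Python 3.11.15, pandas 2.3.3 and matplotlib 3.10.9 were used.

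The members and lists were chosen with earlier results of these data known. Genes named with values are all members, up to 8 genes of each myelin or oligodendrocyte list with the highest mean brain FPKM, and the 8 genes most like the members. A few list genes outside this rule were named after their values were seen (LOC106565094, LOC106583505, LOC106610551, LOC106576539 and dmb). Lists were matched by product name, 11 of 14 names for membrane genes, 4 of 5 for lipid enzymes and 10 of 10 for transcription factors and receptors. Alternatives were DESeq2 size factors and its Wald test, plain library totals, no filter, a filter at 1 CPM in 4 libraries, each pair of tissues fitted alone, a replicate block, and leaving out each library. A limit was chosen for pairing, a correlation of deviations over 0.1 between same-numbered libraries for every number. Only pituitary gland and liver passed it, from 0.100 to 0.158, and falling short of it does not show that fish were not shared. The other ranges were 0.0794 to 0.137 for brain and pituitary gland, 0.0775 to 0.117 for pituitary gland and ovary, 0.0853 to 0.102 for ovary and liver, −0.0024 to 0.0954 for brain and ovary and 0.0253 to 0.0903 for brain and liver. In the first 3 of these, as for pituitary gland and liver, 4 of 4 were closest to their own number. It was 2 of 4 for brain and ovary and 3 of 4 for brain and liver.

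Total counts per library ran from 23239082 to 51858156 for brain, 24830666 to 28918488 for pituitary gland, 25444509 to 30566429 for ovary and 20638203 to 23169283 for liver.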

Additional observations from a re-analysis of the deposited data

Results flagged for a closer look

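Of the 32 sets of 4 libraries (8 genes in 4 tissues), 4 held a library far from the other 3 by Dixon's criterion, which chance gives for about 1 set in 20. LOC106583543 had 18.5 CPM in ovary replicate 1 against 14.7, 14.8 and 14.8 in the other ovary libraries. LOC106604242 had 21.4 CPM in liver replicate 3 against 10.4, 10.4 and 11.5. LOC106612194 had 3.29 CPM in pituitary replicate 3 against 2.26, 2.27 and 2.39, and 1.14 CPM in ovary replicate 3 against 1.02, 1.03 and 1.04. The raw counts in ovary replicates 1 to 4 were 45, 43, 43 and 42, from libraries of unequal depth. Ovary replicate 3 had the lowest total of them, 25444509 counts. With plain library totals the values were 1.47, 1.44, 1.69 and 1.49 CPM, so replicate 3 was also highest without the composition factors.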

How the results depend on the processing

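The count of members called higher in the brain stayed at 7 or 8 in each brain comparison under every alternative run, at 7 to 8 against pituitary gland, 7 to 7 against ovary and 7 to 8 against liver when single libraries were left out. For pituitary gland against ovary, the count of 1 became 3 with DESeq2 size factors, the CPM filter, the DESeq2 Wald test, the replicate block or the 2 tissues alone, 0 with plain library totals, and 0 to 1 without single libraries. For pituitary gland against liver, 0 became 2 with plain library totals and 1 with the DESeq2 Wald test or the 2 tissues alone, and for ovary against liver 0 became 2 with plain library totals. Without single libraries these 2 counts stayed at 0. The causes were not tested. Over all genes, in either direction, plain library totals called 16066 of 37043 for pituitary gland against ovary. They called 12523 for pituitary gland against liver and 19156 for ovary against liver. The 2 tissues alone called 15317 of 33622 for pituitary gland against ovary and 10673 of 31308 for pituitary gland against liver. The DESeq2 Wald test called 16372 of 43467 and 11541 of 41634 there.

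Plain library totals turned the sign of LOC106605072 for pituitary gland against ovary (−0.46), of LOC106600490 (0.41), LOC106588233 (0.56), LOC106567853 (0.26) and LOC106603383 (0.60) for ovary against liver, of LOC106570571 for brain against ovary (−0.11), and of pmp22 (1.04), LOC106589438 (0.82), LOC106610670 (0.31) and LOC106561796 (1.24) for brain against liver. With the 2 tissues alone LOC106583543 had −0.043 for ovary against liver. With no filter pmp22 had −0.0018 against pituitary gland and LOC106570571 −0.015 against ovary.

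Under the replicate block pmp22 had −0.019 against pituitary gland and LOC106570571 −0.20 against ovary, fa2h lost its call against ovary (1.84), and the count of members called changed only for pituitary gland against ovary, to 3. The chosen limit of a correlation over 0.1 for every number was passed only by pituitary gland and liver, where the block count was 0. Without that limit, 4 of 4 numbers matched best with their own for pituitary gland with each other tissue and for ovary and liver. It was 3 of 4 for brain and liver and 2 of 4 for brain and ovary. These matches are a hint from the data and not the design, and a shared fish was not tested. Leaving out single libraries turned signs within the ranges of pmp22 (−0.25 to 0.15) and acy3 (−0.52 to 0.72) against pituitary gland, LOC106570571 (−0.58 to 0.39) and LOC106610670 (−0.12 to 0.59) against ovary, and LOC106561796 (−2.24 to 0.17) against liver. Depth limits the low genes most, such as LOC106612194 in the liver. The list of genes most like the members shared 0 genes under Spearman correlation.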
